A study of Homo sapiens with 24 samples.

Results

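The chromatin binding of S100A8 was compared with that of S100A9 in MCF-10A–ER-Src cells that had not been transformed. Peaks from 2 S100A8-Flag and 3 S100A9-Flag ChIP libraries of ethanol-treated (EtOH) cells were used. A peak was called when its q value, as given by the peak caller MACS2, was at most 1e-07 and it lay on chromosomes 1 to 22 or X. Overlapping called peaks from replicates of a protein were joined, with 1 bp of overlap being enough, and a joined region with peaks of at least 2 replicates was a confident site. Confident sites were thus required in both S100A8 libraries but in only 2 of the 3 S100A9 libraries. This gave 1225 S100A8 sites and 1394 S100A9 sites, which together formed 2231 regions. They were drawn from 13264 merged regions with a called peak in any of the 5 libraries. In the whole series, with cells in ethanol and in tamoxifen (TAM), there were 30322 confident regions, of which 2207 overlapped a region described here.

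MCF-10A is a nontransformed human mammary epithelial cell line. All groups carried ER-Src, a fusion of the v-Src kinase with the ligand-binding domain of the estrogen receptor, which is switched on by 4-hydroxytamoxifen. On top of this, cells stably expressed either S100A8 or S100A9 with a Flag epitope, introduced with a retroviral vector, so that each protein was studied in a cell line of its own and not in the same cells. The EtOH groups received only the vehicle for 24 hours, whereas the TAM groups (3 libraries for each protein) received 1 μM 4-hydroxytamoxifen for 24 hours. Fixation was in 2 steps, first between proteins and then with formaldehyde, and chromatin was precipitated with the same Flag antibody in all groups. The cell line, the introduced protein, and its level cannot be told apart from the protein's binding in these comparisons. Peak lists hold no RNA levels, so that the epithelial identity of the cells was not checked.

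S100A8 and S100A9 are small calcium-binding proteins of the S100 family. They form a heterodimer, known as calprotectin, that is abundant in neutrophils and is secreted in inflammation. Neither has a known DNA-binding domain, and they are thought to reach chromatin through other proteins. Promoters of active genes in human cells are often rich in CpG, and many hold motifs of ETS, KLF/SP1, or NFY factors, whereas enhancers in epithelial cells often hold the motif of AP-1, the dimer of JUN and FOS proteins.

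The sequences around the summits of a few sites show what kind of DNA was bound. Each is an 81-bp window of the plus strand of GRCh37 (hg19), centered on the highest-ranked summit of the site, and letters in capitals match 1 of the motifs searched on both strands. The first 3 are from promoters called in all 5 libraries, and 1 of these, that of ELK4, holds the ETS motif CGGAAG.
MRPS23 promoter, chr17:55927517-55927597: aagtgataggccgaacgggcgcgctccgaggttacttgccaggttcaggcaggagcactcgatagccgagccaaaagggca
DCAF10 promoter, chr9:37800663-37800743: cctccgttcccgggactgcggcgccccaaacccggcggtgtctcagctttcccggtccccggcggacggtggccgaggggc
ELK4 promoter, chr1:205601151-205601231: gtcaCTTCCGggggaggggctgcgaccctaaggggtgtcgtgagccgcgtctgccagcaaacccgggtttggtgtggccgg

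The next 4 windows are from sites with peaks of 1 protein and no deposited peak of the other in EtOH, 1 bound by S100A8 (near CDKN3) and 3 by S100A9. The window in S100A9 itself lies in a coding exon. That in COL9A2 holds the motifs of NFY (CCAAT) and of THAP11/ZNF143 (ACTACANNT), and that near EIF1 holds the CTCF motif.
CDKN3, upstream, chr14:54779012-54779092: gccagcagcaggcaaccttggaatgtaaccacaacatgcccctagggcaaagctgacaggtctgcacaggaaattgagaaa
S100A9 coding exon, chr1:153333204-153333284: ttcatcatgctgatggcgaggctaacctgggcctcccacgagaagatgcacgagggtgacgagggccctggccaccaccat
COL9A2 exon, chr1:40781084-40781164: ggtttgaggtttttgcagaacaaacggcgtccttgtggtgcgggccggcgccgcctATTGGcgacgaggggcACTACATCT
EIF1, upstream, chr17:39822262-39822342: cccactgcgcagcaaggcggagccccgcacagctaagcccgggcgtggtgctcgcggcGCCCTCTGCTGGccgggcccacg

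The last 4 windows hold the AP-1 motif TGACTCA, or TGAGTCA on the other strand, and were chosen for it after their values had been seen. Capitals mark only the AP-1 motif in these, and the EMP1 window also holds a match to the CTCF motif, in lower case. The first 3 are from distal sites called, in EtOH, in S100A8 libraries alone, and the fourth is from a site called as confident for S100A9 alone. At the fourth, S100A8 replicate 2 had a deposited peak with a fold enrichment over input of 7.40. It just missed the threshold, with a −log10 q value of 6.92.
SYT7, upstream, chr11:61370743-61370823: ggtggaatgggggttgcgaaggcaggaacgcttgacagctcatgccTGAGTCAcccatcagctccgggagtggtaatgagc
EMP1, downstream of TSS, chr12:13408830-13408910: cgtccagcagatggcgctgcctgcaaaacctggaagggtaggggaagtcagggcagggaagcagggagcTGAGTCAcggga
SLITRK5, upstream, chr13:87409652-87409732: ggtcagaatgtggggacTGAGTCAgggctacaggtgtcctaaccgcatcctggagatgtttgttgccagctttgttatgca
TBX15, upstream, chr1:119544771-119544851: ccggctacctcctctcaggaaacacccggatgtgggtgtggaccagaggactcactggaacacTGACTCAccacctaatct

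The numbers of called peaks of the 2 proteins overlapped. S100A8 replicates 1 and 2 had 4327 and 4609 called peaks. S100A9 replicates 1, 2, and 3 had 3595, 1853, and 4596. The second S100A9 library was thus the shortest list, and the others were of similar length. On the log2 scale, S100A9 minus S100A8 was −0.51 (exact permutation test over libraries, two-sided, p = 0.4). With 2 libraries against 3 there are 10 arrangements, and the smallest p this design allows is 0.2. At q of at most 1e-10 the difference was −1.02 on the log2 scale, with that smallest p (exact permutation test, p = 0.2). The median fold enrichment of called peaks over the library's own input was 8.26 ± 0.0148 (SD, n = 2) for S100A8 and 8.20 ± 0.308 (SD, n = 3) for S100A9. Read numbers were not used here, and sequencing depth is unknown.

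Promoters were the largest class of regions for both proteins. A peak was assigned to a promoter when its summit lay from 1500 bp upstream to 250 bp downstream of the transcription start site (TSS) of a protein-coding gene. Promoters held 47.5% and 47.8% of the S100A8 peaks and 50.1%, 57.0%, and 45.6% of the S100A9 peaks. The 2 groups overlapped, and their difference of 3.26 percentage points was within the spread of the S100A9 libraries (exact permutation test, p = 0.6). At q of at most 1e-10 it was 4.49 points (exact permutation test, p = 0.2). Introns came second, with between 20.9% and 21.4% of S100A8 peaks and between 17.2% and 22.6% of S100A9 peaks. Exons held from 4.76% to 5.81% of peaks in all 5 libraries. Intergenic peaks farther than 50 kb from any TSS of a protein-coding gene made up 10.1% and 9.89% of S100A8 peaks and 9.12%, 6.37%, and 9.36% of S100A9 peaks. In this class alone the groups did not overlap, but the difference of −1.74 points did not pass the test (exact permutation test, p = 0.2, adjusted p = 0.75 over 5 classes). At promoters the median summit lay 38 and 45 bp upstream of the TSS for S100A8 and 25, 31, and 36 bp upstream for S100A9, so that S100A8 summits were the farther ones in each library, and the test gave the smallest p possible (exact permutation test, p = 0.2).

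**Figure D1:**
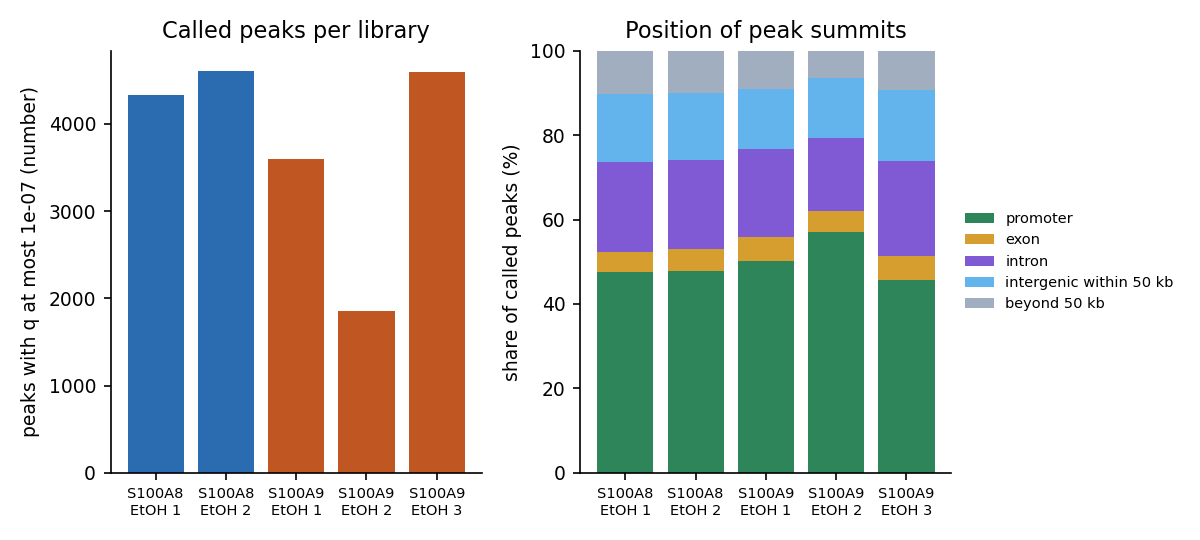
Number of called peaks (left, bars from 0) and percent of called peaks in each region class (right, stacked bars) in the 5 EtOH libraries, with 2 replicates of S100A8-Flag and 3 of S100A9-Flag. The S100A9 replicate 2 bar, at 1853 peaks, is the shortest, and it has the highest promoter share, 57.0%.

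Libraries of different proteins shared about as many peaks as libraries of the same protein. For each pair of libraries, the percent of the shorter list that overlapped a called peak of the longer list was taken. Over the 4 pairs of the same protein it was 26.9% on average (23.7% to 28.4%), and over the 6 pairs of different proteins 26.9% (23.5% to 31.9%). The difference of −0.0484 points was not larger than the spread between pairs (exact permutation test over libraries, p = 1). Its sign changed under several other settings. With every deposited peak it was 2.41 points, with the smallest p that the design allows (exact permutation test over libraries, p = 0.2).

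At the level of confident sites, 388 of the 1225 S100A8 sites overlapped a confident S100A9 site (31.7%, exact binomial 95% interval 29.1% to 34.4%, which covers counting error over sites only). Another 404 S100A8 sites overlapped a called S100A9 peak that was not part of a confident site. A further 344 overlapped an S100A9 peak that was deposited but weaker than the threshold, and 89 overlapped none. Of the 1394 S100A9 sites, 384 overlapped a confident S100A8 site (27.5%), 499 a called peak that was not part of a confident site, 376 a weaker peak, and 135 none. Any deposited peak of the other protein was thus found at 92.7% of S100A8 sites and 90.3% of S100A9 sites. The count of confident sites depended on the number of replicates. When 1 S100A9 library was left out, so that both proteins were held to 2 libraries, S100A9 had 517, 846, and 498 sites without replicates 1, 2, and 3, and 14.5%, 21.1%, and 15.02% of S100A8 sites were shared.

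**Figure D2:**
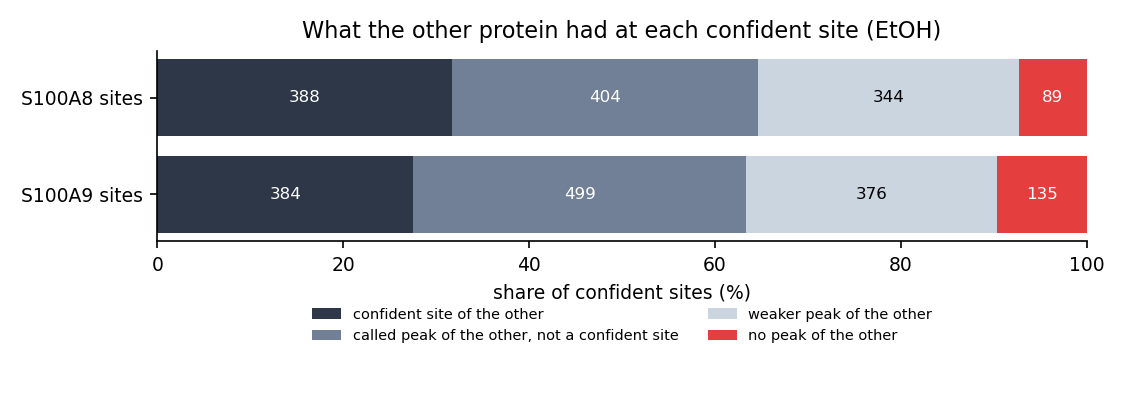
Percent (horizontal axis) and number (printed in the bars) of the confident sites of S100A8 (1225) and of S100A9 (1394) in EtOH, split by the strongest status of the other protein at the site: a confident site, a called peak that is not a confident site, a weaker deposited peak, or no deposited peak. The last class is the smallest for both proteins, with 89 and 135 sites.

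The 2231 regions fell into 384 that were confident for both proteins, 433 confident for S100A8 without a called S100A9 peak, 511 confident for S100A9 without a called S100A8 peak, and 903 in between. These classes were formed from the same peaks, so that their features are given as a description with no test. Sites of both proteins were wider, with a median of 542.5 bp, than sites of S100A8 alone (319 bp) or S100A9 alone (351 bp). Sites of both proteins join called peaks of more libraries, which by itself widens a region, so that the widths cannot be compared directly. Promoters made up 71.1% of the sites of both proteins, against 50.1% of S100A8-only and 53.4% of S100A9-only sites. The median GC content around the summit was 67.2%, 63.7%, and 65.2% in these 3 classes. It was 62.2% around the point 50 bp upstream of the start of each protein-coding gene. At promoter sites the ETS motif was present in 20.5% of sites of both proteins, 19.8% of S100A8-only sites, and 16.1% of S100A9-only sites, compared with 11.2% of 20098 coding promoters. The KLF/SP1 motif CCCCGCCC was present in 7.69%, 11.98%, and 9.52%, compared with 19.0% of coding promoters, and the NFY motif in 5.49%, 7.83%, and 6.23%, compared with 19.7%. These windows are centered on the summit for bound sites and 50 bp upstream of the gene start for all promoters, which are not the same position. At distal sites the AP-1 motif was present in 11.7% of sites of both proteins, 20.8% of S100A8-only sites, and 11.3% of S100A9-only sites.

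A called peak was present in all 5 libraries at 123 regions, of which 69.1% were promoters. Summits at these regions lay close to each other, with a median distance of 32 to 43 bp between libraries of different proteins and 37 to 42 bp between libraries of the same protein. The ranks of fold enrichment were only loosely related across the 123 sites. Spearman's rho was between 0.00404 and 0.236 for libraries of different proteins and between 0.0975 and 0.287 for libraries of the same protein. These are values across sites, which are not replicates, over peaks that had all passed the same threshold.

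The highest-ranked of these regions was the promoter of MRPS23 (ENSG00000181610), a protein of the small subunit of the mitochondrial ribosome, at chr17:55927356-55927951. Its fold enrichment over input was 13.6 and 10.2 in the S100A8 libraries and 13.3, 12.1, and 13.4 in the S100A9 libraries. The values of the 2 proteins overlapped, and all 6 TAM libraries had a called peak there as well. The promoter of PDE8A, a cyclic AMP phosphodiesterase, at chr15:85524342-85525144 had a fold enrichment of 10.96 and 9.63 for S100A8 and 16.2, 9.41, and 9.97 for S100A9. At the promoter of DCAF10, a substrate receptor of cullin ubiquitin ligases, at chr9:37800544-37800987, it was 17.2 and 11.1 for S100A8 and 10.6, 10.6, and 8.44 for S100A9. Here both S100A8 values were above the S100A9 values, by little for replicate 2.

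The promoter of ELK4, an ETS factor that acts with serum response factor, at chr1:205600677-205601550 gave 9.38 and 17.9 for S100A8 and 9.07, 11.7, and 9.49 for S100A9. That of VWA8, a mitochondrial ATPase, at chr13:42534925-42535421 gave 13.7 and 9.60 for S100A8 and 14.8, 9.35, and 8.98 for S100A9. At ELK4, S100A8 replicate 2 lay above all other libraries, and at VWA8 both S100A8 values lay within the S100A9 range. A pair of regions far from any promoter of a protein-coding gene belonged to the same group. Promoters of noncoding genes were not considered here. One lay 30910 bp upstream of KRT17, a keratin of basal epithelial cells, at chr17:39811810-39812584, with 11.2 and 11.98 for S100A8 and 9.24, 11.6, and 12.2 for S100A9. The other, at chrX:73163936-73164240, lay 359943 bp from the nearest coding gene, ZCCHC13, and had 9.39 and 20.7 for S100A8 and 14.6, 13.45, and 8.02 for S100A9. The values of the 2 proteins overlapped at both regions.

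Of the 89 S100A8 sites without any S100A9 peak, the highest-ranked lay 84645 bp upstream of CDKN3, at chr14:54778941-54779168, with a fold enrichment of 9.70 and 12.8 in the S100A8 libraries. All 3 S100A9 TAM libraries had a called peak there. The next lay near the odorant receptor gene OR2S2 (chr9:35945779-35945989, 10.2 and 10.4) and near ERICH2 (chr2:171600854-171601033, 10.4 and 9.62). Both were called in S100A9 TAM libraries, in 3 and 2 of 3. The window near OR2S2 held the ETS motif. A site in RCC2, which encodes a regulator of chromosome condensation, at chr1:17746452-17746695 had 9.29 and 10.1, and it was called in 1 S100A8 and 2 S100A9 TAM libraries. In contrast, the site in an intron shared by HAUS7 and TREX2 (chrX:152728626-152728881, 9.22 and 10.8) had no deposited peak in any of the 9 other libraries. The site over an exon of PADI1, a peptidylarginine deiminase, at chr1:17571849-17572088 had 9.01 and 11.6, and its single TAM peak, in an S100A9 library, was below the threshold.

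Of the 135 S100A9 sites without any S100A8 peak, the highest-ranked lay in an intron of TTC7A, upstream of MCFD2, at chr2:47191702-47193475. Its fold enrichment was 14.5, 13.6, and 17.8 in the 3 S100A9 libraries. A second site in the same gene, at chr2:47193768-47194630, had 13.6, 13.6, and 10.9. In TAM the first was called in 3 S100A9 and no S100A8 libraries, and the second in all 6. The remaining 4 sites were in coding exons of S100A9 and ESR1, in COL9A2, a collagen gene, and near EIF1, a translation initiation factor. The S100A9 site is described below. The ESR1 site (chr6:152382075-152382300) was called in S100A9 replicates 1 and 3, with 12.9 and 10.3, and in no TAM library. A different ESR1 site, called in all 5 libraries, is described below. The COL9A2 site (chr1:40780990-40781240) was called in S100A9 replicates 1 and 3, with 12.8 and 9.88, and in 2 of 3 S100A8 TAM libraries. The EIF1 site, 22835 bp upstream of the gene at chr17:39822170-39822414, had 5.88, 10.3, and 9.88, of which the first was below the threshold, and it was called in 1 of 3 S100A8 TAM libraries.

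The stretch around the promoter of MCFD2, a cargo receptor of the secretory pathway, was examined as a whole after these values had been seen. From the MCFD2 promoter to the TTC7A sites, the S100A9 EtOH libraries had 4, 4, and 6 called peaks, and the S100A8 EtOH libraries had 0 and 0. The highest fold enrichment in the stretch was 42.3, 34.9, and 18.2 for S100A9 and 6.002 and 4.77 for S100A8. In S100A9 replicate 1 this was the highest peak of the whole list. In TAM the S100A8 libraries had 3, 4, and 2 called peaks there, with highest values of 11.4, 7.55, and 9.38, and the S100A9 libraries 7, 5, and 6, with 19.9, 17.4, and 25.1. The 2 proteins did not overlap in either treatment. The TAM values come from libraries that had not been used to choose the stretch, but from the same cell lines. The stretch between KRT17 and EIF1, likewise chosen after its values were seen, was called in all libraries, with 4 and 3 peaks for S100A8 and 4, 5, and 5 for S100A9. Its highest fold enrichment was 11.2 and 11.98 for S100A8 and 32.1, 13.4, and 24.9 for S100A9. In TAM it was 15.0, 16.7, and 14.0 for S100A8 and 43.2, 38.2, and 19.2 for S100A9. These highest values thus did not overlap between the proteins in either treatment, as in the MCFD2 stretch.

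**Figure D3:**
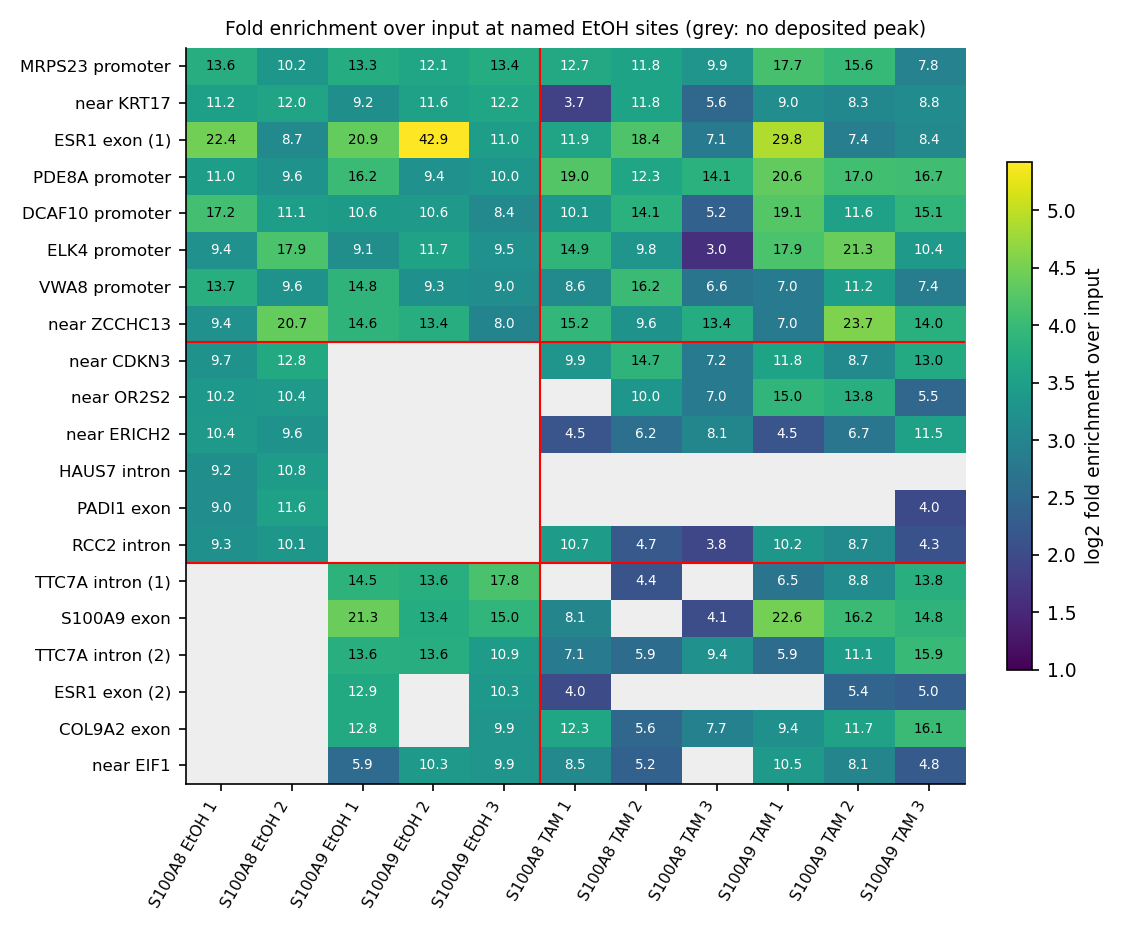
Fold enrichment over input (printed in each cell, with a log2 color scale, gray where no peak was listed) at 20 sites chosen by rank (rows) in the 5 EtOH and 6 TAM libraries (columns). The upper rows have a called peak in all 5 EtOH libraries, the middle rows are S100A8 sites without an S100A9 peak in EtOH, and the lower rows are S100A9 sites without an S100A8 peak in EtOH, many of which had peaks of both proteins in TAM.

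Genes from which the introduced sequences derive were looked at separately. The coding exons of S100A9 held 2 called peaks in each of the 3 S100A9 EtOH libraries and none in the S100A8 EtOH libraries. The stronger of these, at chr1:153333090-153333362, had a fold enrichment of 21.3, 13.4, and 15.03. In TAM it was called in all 3 S100A9 libraries and 1 of 3 S100A8 libraries. The coding exons of S100A8 held no called peak in any EtOH library. ESR1, whose ligand-binding domain is part of ER-Src in all groups, had 2 and 2 called peaks over coding exons in the S100A8 libraries and 4, 3, and 4 in the S100A9 libraries. The strongest, at chr6:152419821-152420142, had 22.4 and 8.66 for S100A8 and 20.9, 42.9, and 11.01 for S100A9. The coding exons of SRC had none in any EtOH library. A peak over a coding exon of S100A9 or ESR1 in the endogenous gene cannot be told apart from one in the introduced copy.

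The promoters of both S100 genes were bound outside these exons. At the S100A9 promoter, fold enrichment was 14.7 in S100A8 replicate 1, 3.35 in replicate 2 (below the threshold), and 5.98, 7.81, and 8.73 in the S100A9 libraries. The first S100A8 library was far above the second, and the S100A9 libraries lay between. At the S100A8 promoter, it was 6.66 and 7.23 in the S100A8 libraries and 5.49 and 3.84 in S100A9 replicates 1 and 2, where it was below the threshold. The list of S100A9 replicate 3 held none there.

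Fold enrichment was compared at the 1756 regions with a deposited peak in all 5 libraries. No region passed an adjusted p of 0.05 (limma with Benjamini-Hochberg adjustment, 0% of regions called), and 112 had an unadjusted p under 0.05. The smallest adjusted p (0.169) belonged to a region 5620 bp downstream of the TSS of ID1, an inhibitor of bHLH factors, at chr20:30198346-30198864. It had 12.9 and 16.5 for S100A8 and 6.38, 2.94, and 6.25 for S100A9. The groups did not overlap, and S100A9 minus S100A8 was −1.51 ± 0.378 (SE) on the log2 scale. The next was the MCFD2 promoter at chr2:47167789-47169589, with 6.002 and 4.77 for S100A8 and 42.3, 20.4, and 15.2 for S100A9, a difference of 2.21 ± 0.590 (SE) on the log2 scale (adjusted p = 0.224). Both were chosen after their values were seen. The median standard error over all regions was 0.380 on the log2 scale, so that small differences could not be detected. When S100A9 replicate 2 was left out 1 region was called, and when replicate 3 was left out 3 were.

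At the level of genes, 717 of 20090 protein-coding genes (3.57%) had a confident S100A8 site at the promoter, 827 (4.12%) a confident S100A9 site, and 1283 (6.39%) a site of either. The higher number for S100A9 was found with 3 libraries against 2. With 1 S100A9 library left out, S100A9 genes were 320, 496, and 317 (without replicates 1, 2, and 3), all below the 717 of S100A8. Both proteins were found at 261 genes, which is 36.4% of the S100A8 genes and 31.6% of the S100A9 genes. A called promoter peak in all 5 libraries was found at 89 genes (0.443%), among them MRPS23, PDE8A, DCAF10, ELK4, and VWA8. Lists of genes with a common role were then examined. Of 26 lists, 22 had a share of genes bound by either protein above the 6.39% of all genes. Some of these were above it by little, such as DNA replication genes (6.98%) and zinc finger genes (7.09%). The level of each gene was not measured here, and the reason for these shares was not tested.

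Among genes for ribosomes, 20 of 78 genes for mitochondrial ribosomal proteins had a promoter site (14 of S100A8, 13 of S100A9, 7 of both), or 25.6%. MRPL55 had a fold enrichment of 13.6 and 7.39 for S100A8 and 11.9, 11.7, and 12.7 for S100A9. MRPL9 was called in S100A8 replicate 2 alone, at 11.1, and in all 3 S100A9 libraries at 10.9, 13.1, and 10.1. MRPL58 was called in both S100A8 libraries, at 13.1 and 9.32, and in S100A9 replicates 1 and 3, at 11.4 and 7.59. Of the 86 genes for cytosolic ribosomal proteins, 15 (17.4%) were bound by either protein (7 by S100A8, 9 by S100A9). Only RPS7 was bound by both, at 17.4 and 11.4 for S100A8 and 8.23 and 9.27 for S100A9 replicates 1 and 3. RPL38 was a confident gene of S100A9 alone, with 8.59 and 12.8 in replicates 2 and 3. It was nevertheless called in S100A8 replicate 2, at 15.1, so that 1 library decided its place.

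RNA-processing genes were also above the background, with 17 of 79 genes for SR proteins, hnRNPs, and snRNPs bound by either (12 by S100A8, 8 by S100A9, 3 by both). SF3A3, a subunit of the U2 snRNP, had 11.3 and 14.2 for S100A8 and 12.3 and 11.3 in S100A9 replicates 1 and 3. HNRNPD, an RNA-binding protein that also acts on mRNA decay, was called in S100A8 replicate 2 at 10.3 and in the S100A9 libraries at 13.5, 11.6, and 8.81. The promoter of SF3B6, of the same snRNP, had 11.8 and 8.62 for S100A8 and 8.56 and 8.86 for S100A9 replicates 1 and 2. RNA polymerase II and Mediator genes were bound at 10 of 72 promoters (13.9%), with no gene shared by both. These include TAF12 and TAF5 (S100A9) and MED23 (S100A8). TAF12 had called peaks in both S100A8 libraries (7.65 and 7.23) as well, which did not form a single merged site assigned to this gene.

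Other genes of protein synthesis and turnover were also examined. Either protein bound 8 of 55 translation initiation factors (14.5%), 7 of 48 proteasome genes (14.6%), and 7 of 34 chaperone genes (20.6%). The share of all genes was 6.39%. EIF2D had 13.5 and 7.43 for S100A8 and 7.87, 16.9, and 16.4 for S100A9. PSMA1, of the proteasome core, had 13.2 and 7.79 for S100A8 and 13.5, 10.3, and 6.12 for S100A9. HSPD1, the mitochondrial chaperonin, had 7.70 and 9.32 for S100A8 and 7.36 and 9.86 for S100A9 replicates 1 and 3. The values of the 2 proteins overlapped at all 3 promoters. Of the aminoacyl-tRNA synthetases, 2 of 34 (5.88%) were bound, near the 6.39% of all genes. These were RARS1 and AARS2, both confident for S100A8 alone. RARS1 had 10.8 and 11.2 in the S100A8 libraries and was called in none of the S100A9 EtOH libraries, but in all 3 S100A9 TAM libraries. Respiratory chain genes were near the background, with 6 of 78, including ATP5MC2 and NDUFS7. DNA replication genes (3 of 43) and mitochondrial carriers of the SLC25 family (3 of 48) were also near it, the latter with SLC25A51 called in all 5 libraries.

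Genes of transcription factors and of rapid responses were bound by either protein in several short lists. Of 27 immediate early genes, 7 (25.9%) were bound by either protein (3 by S100A8, 6 by S100A9). DUSP1, a phosphatase of MAP kinases, was called in all 5 libraries, with 7.09 and 8.17 for S100A8 and 10.6, 11.3, and 7.91 for S100A9, but the S100A8 peaks did not form a confident site of the gene. ATF3, a stress-induced factor, was called in S100A8 replicate 1 at 7.31 and in the S100A9 libraries at 9.54, 10.2, and 12.4. JUNB, an AP-1 subunit, had 9.01 and 12.5 for S100A8 and 7.89 and 9.13 for S100A9 replicates 1 and 3. Of 26 KLF and SP factors, 4 (15.4%) were bound by S100A9, against 4.12% of all genes, and 1 of these, KLF13, by both. KLF4 was called in S100A9 replicates 1 and 3 alone. Of 27 ETS factors, ELK4, ETS1, and ELF2 were bound (11.1%), all by S100A9 and ELK4 by both. The difference in number between the proteins was not tested for any list. It is of 2 to 3 genes in each of these, it rests on 3 libraries against 2, and AP-1 subunits had 2 genes of each protein.

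Cyclins, CDKs, and their inhibitors gave 3 of 27 genes (11.1%), which were confident for S100A9 alone, including CCND1, the cyclin of the early G1 phase, with 9.22 and 11.8 in S100A9 replicates 1 and 2 and a called peak of 7.31 in S100A8 replicate 2. Replication-dependent histone genes were below the background of all genes, with 3 of 65 (4.62%), confident for S100A9. H2AC25 was called in all 3 S100A9 libraries (7.30, 6.92, and 13.3) and in S100A8 replicate 2 (7.02). Of genes for NF-κB factors and inflammatory cytokines, 2 of 25 (8%) were bound, near the background of 6.39%, and these were NFKBIA and RELB, confident for S100A8. NFKBIA, the inhibitor of NF-κB, had 11.8 and 10.97 in the S100A8 libraries and was called in no S100A9 EtOH library, but in all 3 S100A9 TAM libraries. STAT3, a factor of cytokine signaling, was confident for S100A9 alone, with 1 S100A8 peak at 8.74. BHLHE40, a repressor of the circadian clock, was called in all 5 libraries, with 9.74 and 11.9 for S100A8 and 7.89, 12.9, and 10.3 for S100A9. CLOCK was confident for S100A8 alone, at 10.5 and 7.23, with no called S100A9 peak in EtOH. Among AP-1 subunits (3 of 16), CREB and ATF factors (3 of 20), C/EBP and STAT factors (2 of 13), and a list of other transcription factors and cofactors, such as THAP11, CTCF, and NFY (2 of 12), shares were between 15% and 18.8%.

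Of genes that mark epithelial cells, 4 of 21 for basal adhesion (19.0%) and 1 of 55 keratins (1.82%) were bound, the former above and the latter below the 6.39% of all genes. LAMB3, a laminin chain of the basement membrane, had 9.15 and 11.2 for S100A8 and 7.73 and 6.39 for S100A9 replicates 1 and 2. DST, a cytolinker of hemidesmosomes, was called in S100A8 replicate 2 at 9.93 and in the S100A9 libraries at 8.23, 9.21, and 8.74. KRT17 was called in S100A9 replicates 1 and 2 at the promoter, at 7.63 and 7.56. Of 20 S100 genes, 4 had a confident site, S100A8, S100A9, S100A2, and S100A16. S100A16 was of S100A8 alone, with 13.1 and 10.4, and had called peaks in all 6 TAM libraries. S100A2 was of both, with 12.6 and 8.20 for S100A8 and 8.27 and 9.25 for S100A9 replicates 2 and 3. The zinc finger genes named ZNF, by far the longest list, were near the background with 36 of 508 (7.09%), and 1 of them, ZNF609, was called in all 5 libraries.

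**Figure D4:**
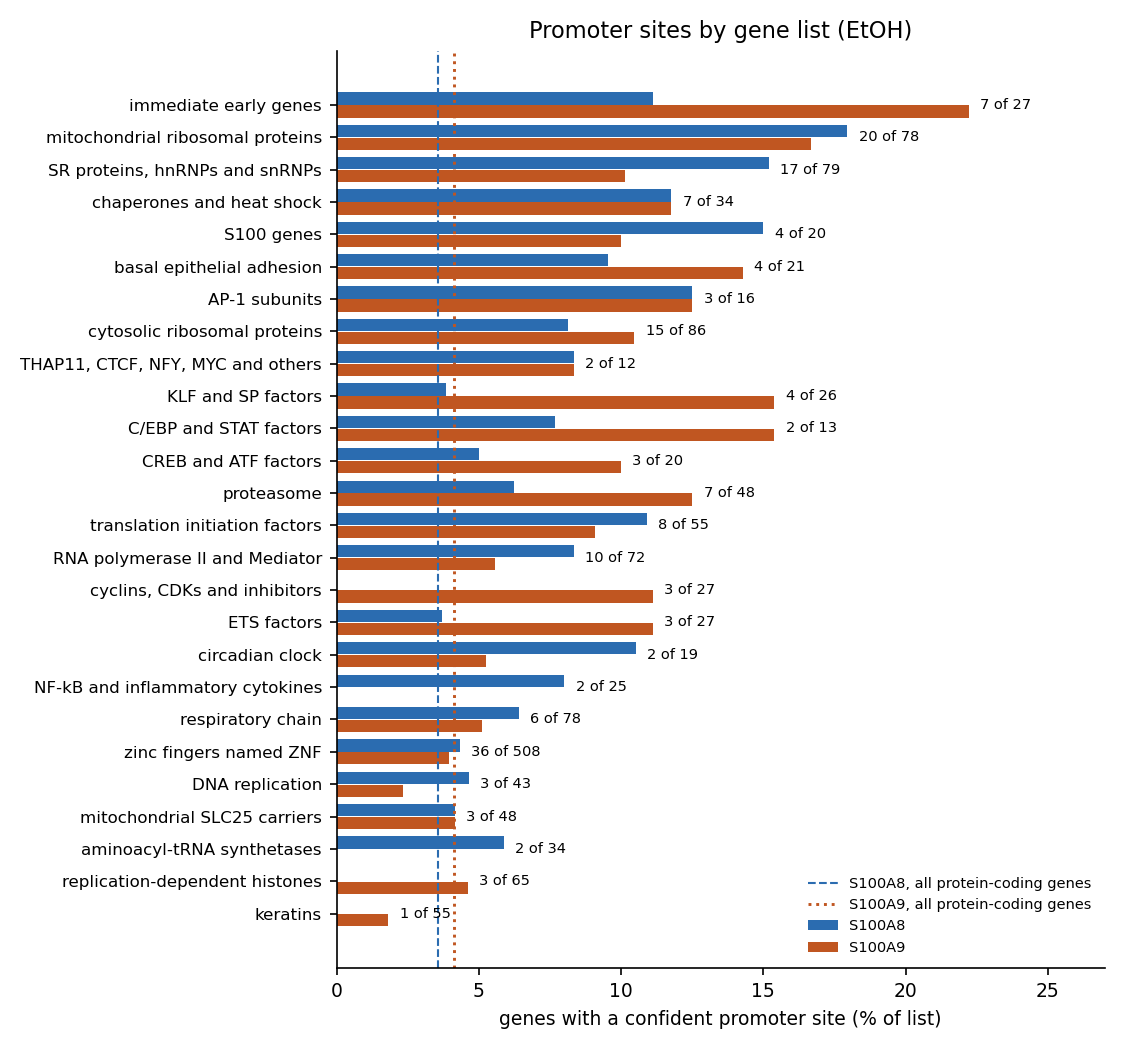
Percent of the genes of each of 26 lists with a confident promoter site of S100A8 or of S100A9 in EtOH (bars from 0), with the number bound by either of the number in the list. Lines mark the shares of all 20090 protein-coding genes, 3.57% for S100A8 and 4.12% for S100A9, and a list without a bar had no site of that protein.

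Sites of a single protein in EtOH were followed into the TAM libraries, which had not been used to choose them. Of the 433 S100A8-only sites, 74.8%, 71.6%, and 65.4% had a called peak in the S100A8 TAM libraries and 76.4%, 75.3%, and 88.0% in the S100A9 TAM libraries. Of the 511 S100A9-only sites, the values were 70.3%, 63.01%, and 61.6% in S100A8 TAM libraries and 70.8%, 72.0%, and 87.3% in S100A9 TAM libraries. Most sites of 1 protein in EtOH were therefore called for the other protein in TAM. In this comparison S100A8-only sites were called at the higher rate in all 6 libraries, by 5.62 ± 2.597 points (SD, n = 3) in S100A8 libraries and by 3.20 ± 2.45 points (SD, n = 3) in S100A9 libraries. The difference between proteins, 2.43 points, was not larger than the spread (exact permutation test, two-sided, p = 0.4). With 3 libraries against 3 the smallest p is 0.1, and this was reached in 3 other settings, with a difference of 9.80 points at sites that lacked any deposited peak of the other protein, 3.27 points for any deposited TAM peak, and 4.06 points with equal numbers of TAM peaks. With equal numbers of TAM peaks the direction in the S100A9 TAM libraries was kept (3.03, 2.55, and 1.53 points). It was not kept throughout in the other settings. At sites that lacked any deposited peak of the other protein, S100A8 sites were called at the higher rate in the S100A8 TAM libraries (by 3.30, 7.34, and 5.45 points) but at the lower rate in the S100A9 TAM libraries (−6.38, −6.35, and −0.583 points). With any deposited TAM peak the S100A9 TAM libraries gave −2.32, 0.473, and −1.15 points. Sites of both proteins were called in 90.9% to 98.7% of cases. Only 28 of the 2231 sites lacked a called peak in any TAM library, 14 of S100A8 alone, 13 of S100A9 alone, and 1 in between, and 4 of the 28 were promoters.

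Of the 10 motifs searched, that of AP-1 had the largest difference in share between the proteins in EtOH. It lay within 50 bp of the summit in 10.01% and 9.79% of S100A8 peaks and in 6.43%, 5.56%, and 6.22% of S100A9 peaks. The groups did not overlap. The difference of −3.83 points had the smallest p that the design allows, and it did not pass the adjustment (exact permutation test, p = 0.2, adjusted p = 0.667 over 10 motifs). Outside promoters the shares were 16.5% and 16.4% for S100A8 and 11.3%, 10.5%, and 9.71% for S100A9, and at promoters 2.77% and 2.50% against 1.55%, 1.80%, and 2.05%. The sites near SYT7, EMP1, and SLITRK5 printed above are of this kind. Fold enrichment was 10.1 and 10.4 near SYT7, 9.41 and 11.1 near EMP1, and 9.39 and 10.7 near SLITRK5 in the S100A8 libraries, whereas S100A9 peaks there were between 3.22 and 6.44 where any was deposited. All 3 were called in the 3 S100A9 TAM libraries.

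In TAM the order was the opposite. The AP-1 motif was found in 15.5%, 17.4%, and 17.5% of S100A8 peaks and in 18.4%, 18.1%, and 20.9% of S100A9 peaks, a difference of 2.31 points (exact permutation test, p = 0.1, adjusted p = 0.333). The change of this difference from EtOH to TAM, 6.14 points, was tested by permuting the proteins within each treatment, and gave the smallest p of its 200 arrangements (exact permutation test, two-sided, p = 0.01, adjusted p = 0.05 over 10 motifs, which is at the threshold and not below it). This test was added after the EtOH shares had been seen. The motifs of NFY and CTCF were also less frequent in every S100A9 EtOH library than in either S100A8 library, at 6.10% to 7.03% against 7.64% and 7.74% for NFY and 5.79% to 6.46% against 6.83% and 6.93% for CTCF (exact permutation test, p = 0.2 and adjusted p = 0.667 for each). With the same number of peaks from each library the groups overlapped for both of these, but not for AP-1. For the ETS and KLF/SP1 motifs the groups overlapped, with ETS in 11.1% and 11.7% of S100A8 peaks and in 9.77% to 12.03% of S100A9 peaks. At promoter peaks alone they did not overlap. There ETS was present in 17.6% and 18.5% of S100A8 peaks and 15.05%, 16.7%, and 15.1% of S100A9 peaks, and KLF/SP1 in 10.8% and 11.4% of S100A8 peaks and 8.11%, 10.4%, and 8.07% of S100A9 peaks.

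**Figure D5:**
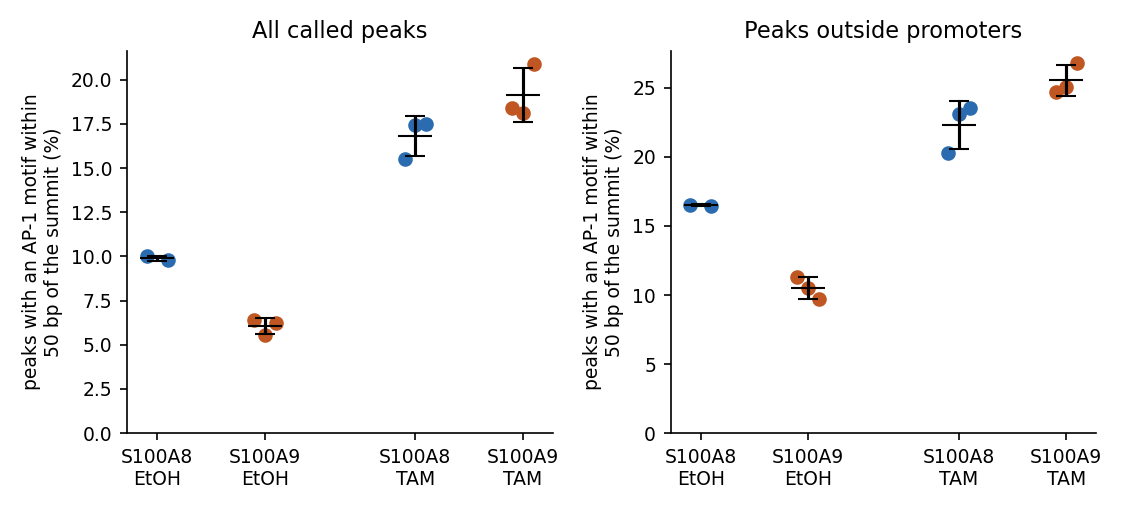
Percent of called peaks with the AP-1 motif within 50 bp of the summit in each library (points) with the mean and SD of each group, in EtOH (2 S100A8 and 3 S100A9 libraries) and in TAM (3 each), for every peak and for peaks outside promoters. The S100A8 points lie above the S100A9 points in EtOH and below them in TAM.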

How the data were processed

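Flag ChIP-seq peak lists of MCF-10A–ER-Src cells were used. The authors used Bowtie2 with hg19, retained reads that mapped uniquely, and ran MACS2 on each library against matched input, without pooling. The tool versions are not given in the sources used here. Deposited lists give each peak's fold enrichment (a ratio to input) and its −log10 q value, and reach q = 0.05. The study's minimum of raw reads per peak was not applied. Depth is unknown.

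Called peaks (q at most 1e-07) and confident sites are as defined in the report. Starts were converted to 1-based coordinates. TSSs were those of protein-coding transcripts of GENCODE 44 lifted to GRCh37, and downstream summits were accepted up to 5% of the gene's length. Motifs were matched exactly on both strands. Shares per library were compared by exact permutation over libraries, two-sided by doubling, and fold enrichment by limma 3.58.1 (R 4.3.3, log2, median-centered, trend, Benjamini-Hochberg). Replicates are described as biological in the study's methods, and p values measure the spread between these libraries. No peak interval was identical between libraries. The overlap, permutation, and limma steps were tested on simulated data. Python 3.11.15, pandas 2.3.3, scipy 1.17.1, and pysam 0.24.0 were used.

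The sites and gene lists were chosen with earlier results of these data known. Named sites were the 8 regions called in all 5 libraries and the 6 sites of each protein without a peak of the other, ranked by mean percentile of fold enrichment. The genes of the introduced sequences, up to 4 members per list called in the most libraries, and up to 5 regions per direction past the limma threshold were also to be named. Alternatives were other q thresholds, equal numbers of top peaks, other overlap, replicate, TSS, gene, and motif window rules, other limma scalings, each library left out, and the replicate number as a block. Motif shares outside promoters, motif shares in TAM, and gene lists with equal numbers of peaks were added after seeing the data. A few items that the rules would name are not reported here.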

Additional observations from a re-analysis of the deposited data

Results flagged for a closer look

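The difference in the AP-1 share between S100A9 and S100A8 libraries differed between treatments. It was −3.83 points in EtOH and 2.31 points in TAM, and the change of 6.14 points gave the smallest p of the permutation (exact, p = 0.01, adjusted p = 0.05 over 10 motifs). The change was 6.04 points with the same number of top peaks and 9.21 points outside promoters (exact permutation, p = 0.01 in both, adjusted p = 0.0333 and 0.1). Every S100A8 library lay above every S100A9 library in EtOH, and below in TAM. With the same number of top peaks AP-1 was not alone. The ETS and THAP11/ZNF143 shares changed by 2.44 and 0.509 points there (exact permutation, p = 0.01 and adjusted p = 0.0333 for each).

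The difference in the CTCF share changed in the same direction, by 3.36 points (exact permutation, p = 0.01, adjusted p = 0.05), from −0.79 points in EtOH to 2.58 points in TAM. With the same number of top peaks it was 3.17 points (exact permutation, p = 0.05, adjusted p = 0.125).

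Called peaks on sequences other than chromosomes 1 to 22, X, and Y were not used in the comparisons. There were 37 and 33 of these in the S100A8 EtOH libraries and 42, 32, and 38 in the S100A9 EtOH libraries. The highest fold enrichment among them was 16.1 and 8.95 for S100A8 and 17.0, 9.86, and 11.6 for S100A9. Peak lists of control libraries without a Flag protein were not analysed here.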

How the results depend on the processing

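Of 93 values under alternative settings, 62 were counted as unchanged, 23 moved, and 8 changed sign. For differences between the proteins, unchanged means that the sign was kept, and the size could still differ. The promoter share difference, counted as unchanged, was 0.206 points without S100A9 replicate 2 and 5.92 points without replicate 3, against 3.26 points in the main setting. The promoter share difference was −1.62 points with every peak as deposited, and the share beyond 50 kb 0.73 points. The overlap difference was 2.41 points with every deposited peak, 0.955 at q of at most 1e-10, 0.598 with equal numbers of top peaks, and 0.232 with an overlap of at least 0.5 of the shorter peak, and from −0.833 to 1.45 with 1 library left out (0.722 without S100A9 replicate 1, 1.45 without replicate 2). The shared percent of S100A8 sites was 53.1% with every deposited peak, 22.2% at 1e-10, 35.0% with equal numbers, 9.71% when every replicate was required, 36.0% with at least 1 replicate, and 14.5% to 21.1% with 1 S100A9 library left out. Genes of both proteins were 2165, 61, 100, 79, and 1653 in the same order, and 121 to 167 with 1 S100A9 library left out. S100A8 sites could not be formed from 1 library. Region classes without overlap between groups were 2 with equal numbers (1 otherwise), and motifs without overlap were 8 at promoters alone (3 otherwise). limma called 1 region without centering, 2 on log2 of −log10 q, and 0 to 3 with 1 library left out. With the replicate number as a block it called 1, and the block gave −0.79 for log2 peaks, 5.92 points for the promoter share, −0.806 for the overlap, and 2.43 for the follow-up in TAM, none past the threshold. Deviations from the protein means at the 1756 regions had r = −0.0239 and −0.0180 between libraries with the same number. With 2 S100A8 libraries the deviations of 1 mirror those of the other. These values therefore cannot decide whether equal numbers mark a shared batch, which the labels do not say. The causes were not tested. Unknown depth limits every count of sites of 1 protein, since a weaker peak of the other was deposited at most of them.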
